A study of Mus musculus with 4 samples.

Results

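The transcripts of wild-type mouse embryonic fibroblasts given tumour necrosis factor alpha (TNF) were compared with those of the same cells given control medium. The 2 libraries were taken from a series of 4, and every deposited transcript entry with 1 RPKM or more (reads scaled by transcript length and library size) in at least 1 of them was kept. Each gene is represented by 1 entry, that with the highest mean of the 2 values. This gave 13636 genes and unnamed entries of 23005, of which 10530 carried a gene symbol.

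The series pairs Mll1+/+ fibroblasts with fibroblasts labelled Mll1-/-, each with and without TNF, under a title on the part Mll1 plays in TNF-activated transcription. Mll1 (current symbol Kmt2a) is an enzyme that methylates lysine 4 of histone H3, and the wild-type cells carry both copies. The treated cells received TNF at 10 ng/ml for 4 hr and the control cells received medium without it, both in DMEM with serum. Cells from 3 separate treatments were combined into 1 library per group. The spread between treatments therefore cannot be measured, no p-value is given, and a difference is described by its size and by a counting interval. A difference was counted when the log2 ratio of RPKM + 0.5, TNF over control, was 1 or more in size. Intervals are 95% exact (Clopper-Pearson) intervals of the ratio of reads, scaled to the library totals, and cover counting error only. The labels call the cells a MEF line and do not say from how many embryos it came.

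The libraries held 27728647 reads (control) and 27977248 reads (TNF). Of 12 fibroblast markers, 10 were in the table and 6 reached 1 RPKM, with summed levels of 5567 RPKM in control and 5111 RPKM with TNF. Most of these sums came from S100a4, at 2934 and 2692 RPKM, and Vim. Vim, encoding the intermediate filament vimentin, stood at 2418 and 2224 RPKM and Col1a1, a collagen I chain, at 105 and 92.5 RPKM. Fn1, encoding fibronectin, was at 59.1 and 63.3 RPKM. Other fibroblast markers were low: Col3a1 was at 0.531 and 0.296 RPKM, Pdgfra at 0.220 and 0.267 RPKM, and Dcn (decorin) had 0 reads in both libraries. Of 12 leukocyte markers, 6 were in the table and only Cd14 reached 1 RPKM, at 23.2 and 25.6 RPKM, while Csf1r had 8 and 3 reads and Lyz2 4 and 5 reads. Krt19, a keratin of simple epithelia, was at 52.6 and 41.5 RPKM and was the only 1 of 8 epithelial markers in the table to reach 1 RPKM. The cells therefore carried vimentin, collagen I and fibronectin transcripts but not the whole marker set of fibroblasts. In RNA from whole cultures, more RNA per cell and more cells with the transcript cannot be told apart.

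TNF binds its receptors on the cell surface and, through adaptor proteins and ubiquitin chains, activates the IkB kinases. These kinases mark IkB proteins for destruction, which frees NF-kB dimers to enter the nucleus and bind kappaB sites near their target genes. Among those targets are chemokines, adhesion molecules, survival factors and the pathway's own inhibitors, so that the signal limits itself. Fibroblasts are known to answer TNF by secreting chemokines that attract neutrophils and monocytes.

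Of the 13636 features compared, 72 were higher with TNF (0.528%) and 7 were lower (0.0513%). With a counting interval that also excluded 1 there were 63 higher (0.462%) and 2 lower (0.0147%). The median log2 ratio was -0.02, and 95% of the ratios lay between -0.36 and 0.44. Among the 72, 62 had 200 bases or more and a counting interval above 1, and the other 10 were short entries of at most 11 reads. A symbol stood beside 62 of the 72, of which 8 are small RNAs that are counted and not named. The other 54 are the named genes, and all 54 had a counting interval above 1, with at least 51 reads in the TNF library. An entry under 1 RPKM in control could enter only through the TNF library, which fixes the sign of its ratio. Of 20 such features under 0.5 RPKM in control, 14 are among the 72, and Cxcl10, Saa3, Serpina3g, Tnip3, Nos2, Gbp2, Mmp10, Mmp13 and Serpinb2 are listed genes that entered in this way. Among genes of at least 3 RPKM in the higher library, those just inside the threshold were Plscr1 (1.04), Slc11a2 (1.04) and Samd9l (1.07), and those just outside were Plpp3 (0.99), Lif (0.98) and Rab32 (0.95).

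**Figure D1:**
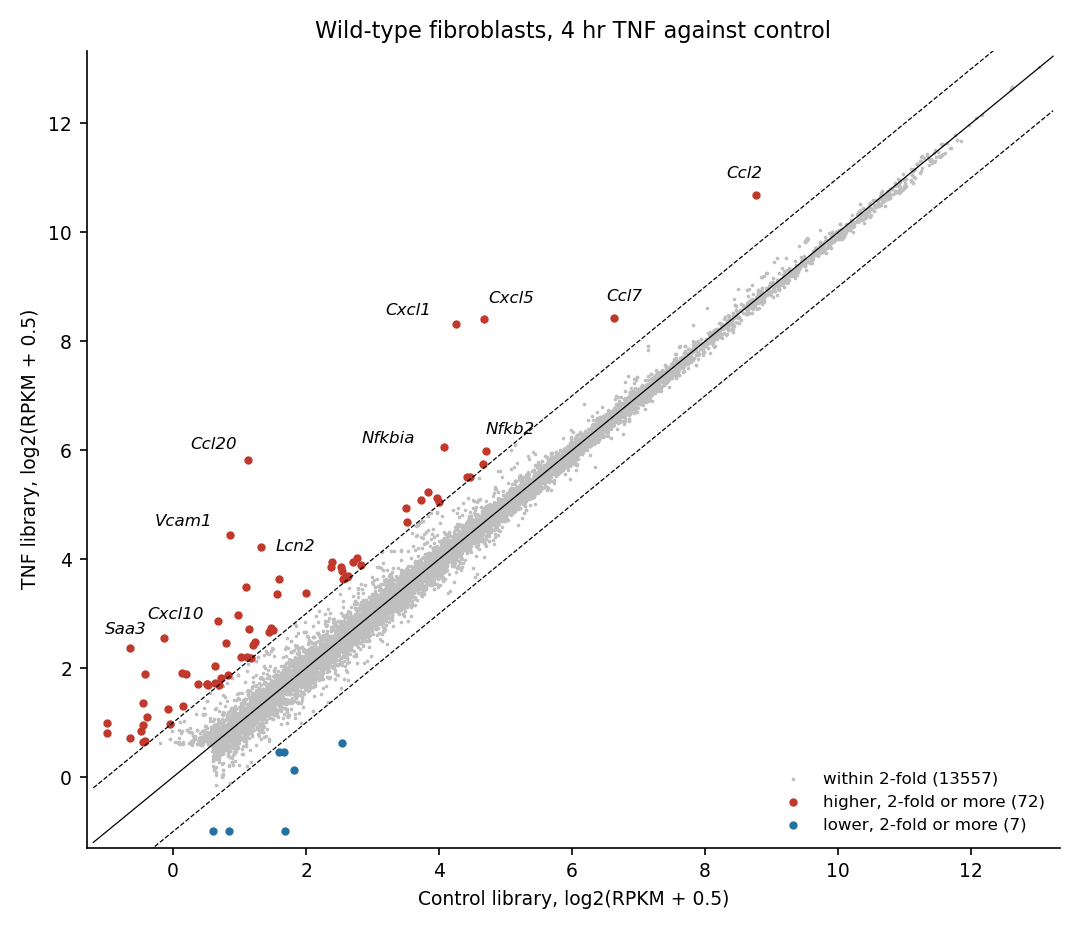
Each point is 1 of 13636 genes or unnamed entries, by log2(RPKM + 0.5) in the control library (x axis) and in the TNF library (y axis), with dashed lines at a 2-fold difference. The 72 red points above the band include Ccl2, Cxcl1 and Cxcl5, while 7 blue points lie below it.

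Within the higher features that carry a symbol, most of the summed gain in RPKM came from a few chemokine genes. Abundant genes under the size rule gained RPKM too, among them Npm1 (134 RPKM, log2 ratio 0.09), and are not part of that sum. The summed level of the 72 features was 881 RPKM in control and 3539 RPKM with TNF, or 0.0753% and 0.308% of the summed RPKM of all features compared. Ccl2 alone made up 46.5% of the gain over the 62 of them that carry a symbol, the 3 genes with the largest gains 70.1%, and the 5 with the largest gains 81.6%. At the other end, 33 of the 54 named genes were under 3 RPKM in control, so many of the high ratios belong to scarce transcripts.

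**Figure D2:**
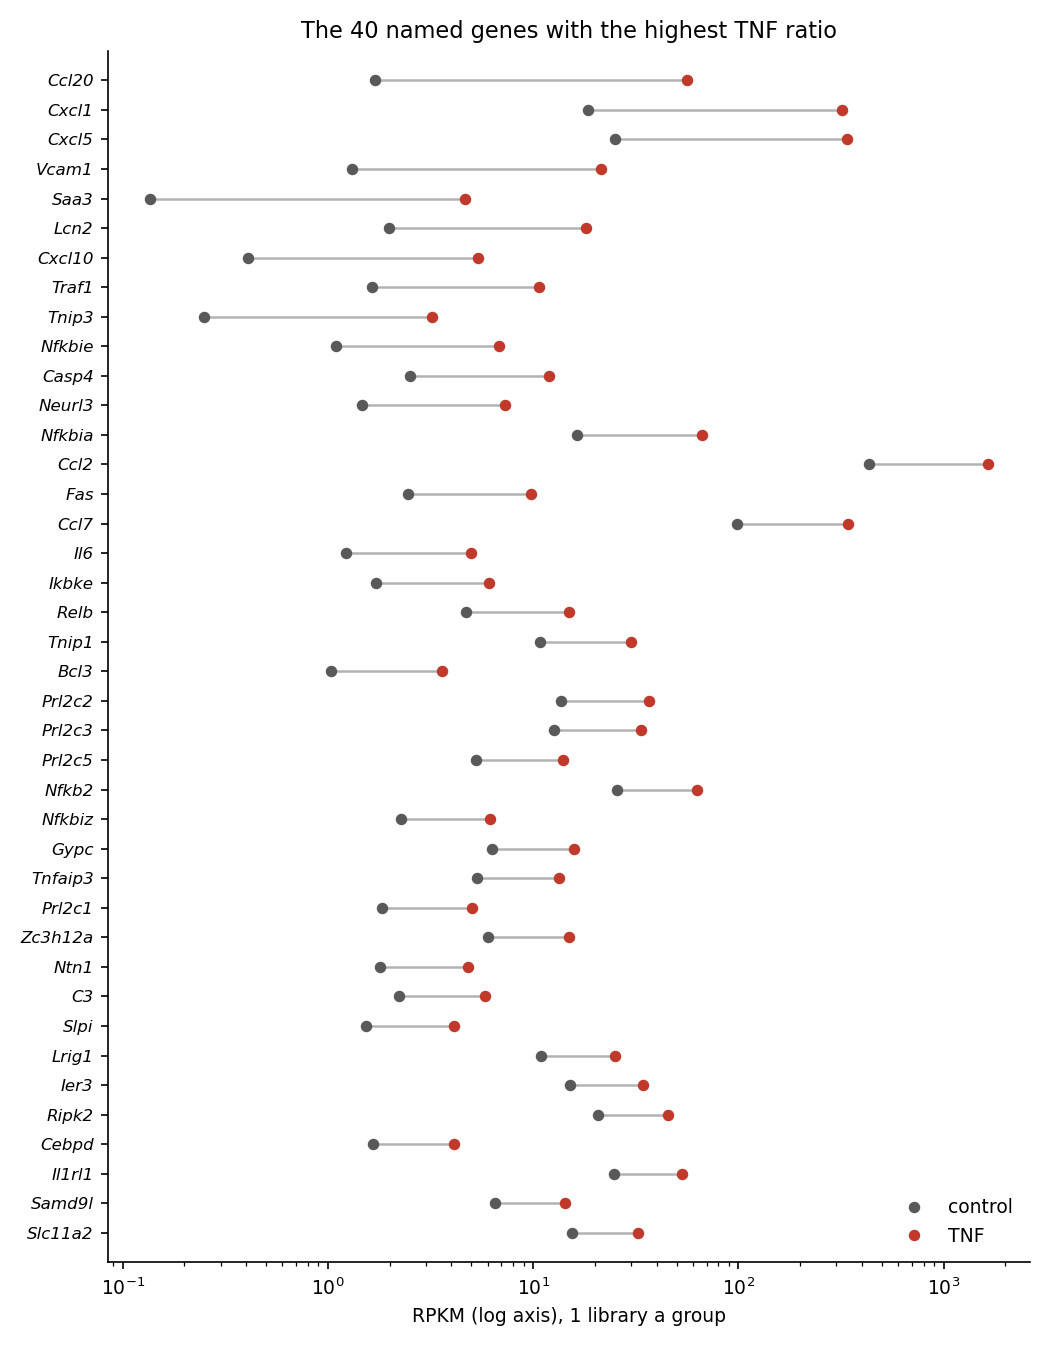
RPKM on a log axis in the control (grey) and TNF (red) library, 1 library each, for the 40 named genes with the highest log2 ratio among those with at least 3 RPKM with TNF. Levels with TNF run from 3.21 RPKM for Tnip3 to 1643 RPKM for Ccl2.

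The promoters of these genes bear on the comparison because kappaB sites are the DNA elements that NF-kB binds. RefSeq promoter windows (GRCm38.p6, 250 bases before to 50 after the transcript start) were searched on both strands for the kappaB consensus, where matches may overlap. The first 6 sequences are those of genes from different roles that were higher with TNF and hold the consensus, 3 chemokines, a cytokine and 2 inhibitors. Lcn2 is shown as a gene with a high ratio and no match. Each sequence is the 250 bases before the start, read 5′ to 3′ on the strand of the gene, with matches to the kappaB consensus in capitals.
Ccl20, chr1:83116516-83116765, plus strand: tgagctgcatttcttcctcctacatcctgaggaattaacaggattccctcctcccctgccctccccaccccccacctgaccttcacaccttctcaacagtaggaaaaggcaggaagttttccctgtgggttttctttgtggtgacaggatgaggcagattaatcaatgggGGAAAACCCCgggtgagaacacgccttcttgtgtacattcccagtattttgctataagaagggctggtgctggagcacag
Cxcl1, chr5:90890995-90891244, plus strand: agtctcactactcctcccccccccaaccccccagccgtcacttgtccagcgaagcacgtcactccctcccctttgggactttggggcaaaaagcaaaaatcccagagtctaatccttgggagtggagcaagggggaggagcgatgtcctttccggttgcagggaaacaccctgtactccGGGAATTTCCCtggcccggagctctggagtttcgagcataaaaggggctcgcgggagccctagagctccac
Cxcl10, chr5:92348890-92349139, minus strand: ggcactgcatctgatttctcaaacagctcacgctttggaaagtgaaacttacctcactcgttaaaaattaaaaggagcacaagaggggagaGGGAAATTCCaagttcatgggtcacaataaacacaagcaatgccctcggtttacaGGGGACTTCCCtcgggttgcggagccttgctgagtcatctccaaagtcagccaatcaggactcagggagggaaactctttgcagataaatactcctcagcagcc
Il6, chr5:30012864-30013113, plus strand: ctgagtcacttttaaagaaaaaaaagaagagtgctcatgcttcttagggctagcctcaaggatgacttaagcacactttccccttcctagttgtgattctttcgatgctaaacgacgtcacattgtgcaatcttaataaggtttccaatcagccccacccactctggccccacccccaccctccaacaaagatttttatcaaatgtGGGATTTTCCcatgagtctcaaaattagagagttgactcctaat
Nfkbia, chr12:55492648-55492897, minus strand: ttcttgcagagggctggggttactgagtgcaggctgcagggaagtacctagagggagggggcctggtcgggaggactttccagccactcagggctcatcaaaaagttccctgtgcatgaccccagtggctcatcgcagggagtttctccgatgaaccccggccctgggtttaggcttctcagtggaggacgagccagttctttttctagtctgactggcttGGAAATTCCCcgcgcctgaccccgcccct
Tnip1, chr11:54962941-54963190, minus strand: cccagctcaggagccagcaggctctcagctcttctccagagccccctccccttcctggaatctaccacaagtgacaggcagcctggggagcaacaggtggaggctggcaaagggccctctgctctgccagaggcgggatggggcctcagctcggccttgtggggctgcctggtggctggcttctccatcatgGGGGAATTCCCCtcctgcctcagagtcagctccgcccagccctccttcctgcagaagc
Lcn2, chr2:32387740-32387989, minus strand: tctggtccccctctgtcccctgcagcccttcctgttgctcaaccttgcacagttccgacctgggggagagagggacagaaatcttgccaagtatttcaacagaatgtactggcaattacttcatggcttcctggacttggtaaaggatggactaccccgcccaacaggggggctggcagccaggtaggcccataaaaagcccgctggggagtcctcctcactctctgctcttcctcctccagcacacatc

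Counting from the transcript start, the overlapping matches of Cxcl1 began at positions -71 and -70, one on each strand. Cxcl10 held 3 matches, at -159, -104 and -103, of which the last pair overlap. The match of Nfkbia began at -29, that of Il6 at -44 and that of Ccl20 at -80. In Tnip1, 3 overlapping matches covered GGGGAATTCCCC. A match describes the letters and is neither a bound site nor a cause, and its lack in Lcn2 says only that these letters are not in that window.

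Windows were found for 37 of the 62 higher genes with a symbol, 45 windows in all. Vcam1, Cxcl5, Ccl2, Ccl7 and Relb are among the genes without one, so the shares do not cover them. The kappaB consensus stood in 20 of the 45 (44.4%), against 10.1% of the 10684 windows of compared genes not past the size rule and 8.46% of all 32851 windows. A second kappaB pattern, which ends in TTTCC and can match the same bases, stood in 26.7%, against 1.57% and 1.63%. By gene, 17 of the 37 held the consensus, and in 13 the nearest match lay within 100 bases of a start. The motif of AP-1 (TGANTCA), the factor formed by Fos and Jun proteins, stood in 28.9% of the windows against 4.95% and 7.81%. The GC box GGGCGG ran the other way, with 37.8% against 64.7%, beside 35.7% of all windows. Base composition differed too, with a median GC content of 50.3% in windows of higher genes and 61.0% in those of the others. Its part in the motif shares was not tested, and windows of 1 gene can overlap.

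**Figure D3:**
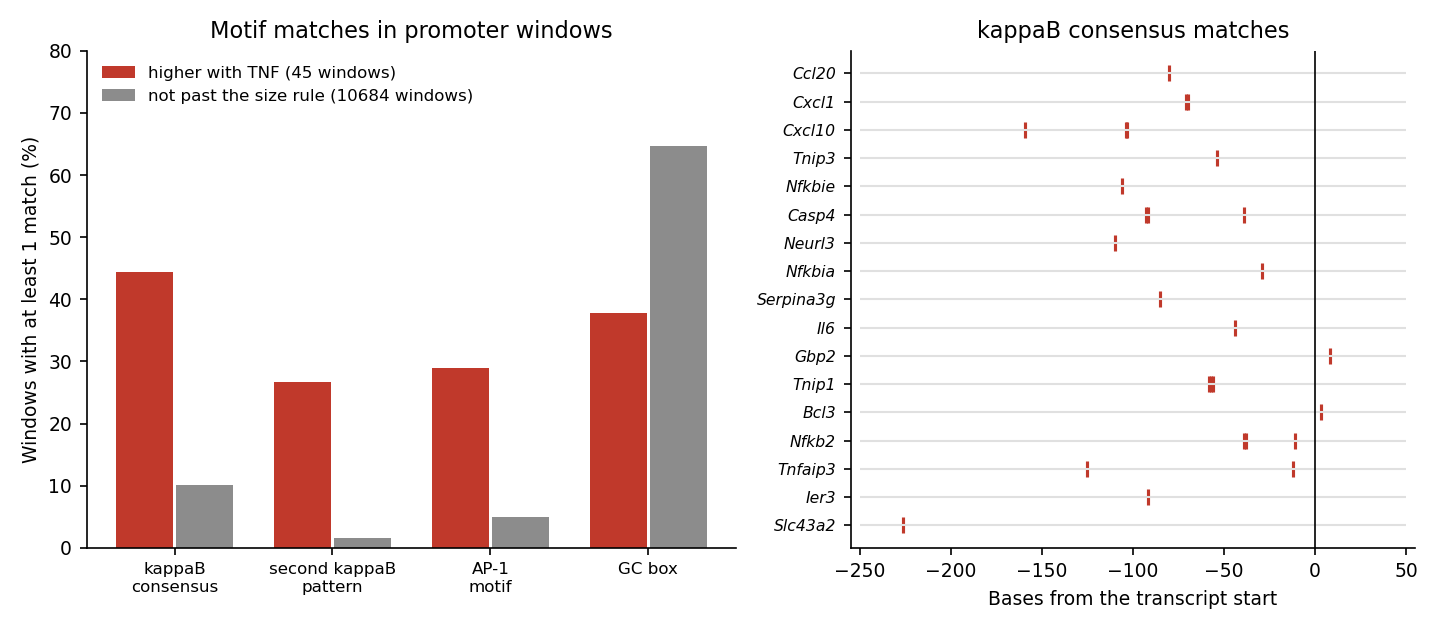
Left, percent of promoter windows with at least 1 match to each motif, for higher genes (red, 45 windows) and compared genes not past the size rule (grey, 10684 windows). Right, kappaB consensus matches (red marks) by distance in bases from the transcript start for the 17 higher genes that have one, in which 13 have a match within 100 bases.

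Chemokines, the secreted proteins that guide leukocytes, held the 3 highest log2 ratios of RPKM + 0.5 among named genes. By the ratio of reads alone, the scarce Saa3 (34.2, interval 9.11 to 288) and Nos2 (lower limit 36.9) stood as high as Ccl20. Of 33 genes listed, 27 were in the table and 8 reached 1 RPKM. Of these, 6 were higher and 0 lower (75% against 0.528% of all features), with a median log2 ratio of 2.31 against -0.02. Cxcl10 is among the 8 only through its level with TNF. Ccl20, the ligand of CCR6 on lymphocytes and dendritic cells, had 1.69 RPKM (40 reads) in control and 56.3 RPKM (1343 reads) with TNF, a 33.3-fold ratio of reads (24.3 to 46.8). Cxcl1, a neutrophil attractant, stood at 18.6 and 319.9 RPKM (17.2-fold, 15.7 to 18.9). Cxcl5, which acts on the same receptor, stood at 25 and 338 RPKM (13.5-fold, 12.7 to 14.4). Both neutrophil attractants were thus present at moderate levels in control, unlike the scarce Ccl20.

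The monocyte attractants Ccl2 and Ccl7 were already abundant without TNF. Ccl2 stood at 434 RPKM (9695 reads) in control and 1643 RPKM (37059 reads) with TNF, a 3.79-fold ratio (3.70 to 3.87) and the largest gain of any gene, 1209.6 RPKM. Ccl7, whose product also attracts monocytes, stood at 98.8 and 343 RPKM (3.47-fold, 3.32 to 3.63). Cxcl10, a ligand of CXCR3 on T cells, was scarce, at 0.407 RPKM (12 reads) and 5.38 RPKM (160 reads), or 13.2-fold (7.36 to 26.1). Ccl9 was under the size rule, at 9.48 and 17.3 RPKM (log2 ratio 0.83). Ccl25 was above 1 RPKM in both libraries and near level, with 128 reads in control and 112 with TNF (log2 ratio -0.18). The other listed CC chemokines in the table stayed under 1 RPKM, with 14 and 9 reads for Ccl8 and 1 and 6 reads for Ccl5.

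Neighbouring chemokine genes did not all have like levels. Ccl2 and Ccl7 lie next to each other on chromosome 11 in the RefSeq gene table, and both were higher. Cxcl5 and Cxcl1 stand on chromosome 5 with Ppbp, Pf4, Cxcl3 and Cxcl15 between them, and none of those 4 reached 1 RPKM. Ppbp had 16 reads in control and 26 with TNF, Cxcl3 had 1 and 2, Pf4 had 1 and 0, and Cxcl15 had 1 and 1. Cxcl2, another neutrophil attractant, had 0 and 5 reads.

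Among interleukins and haematopoietic cytokines 1 of 9 compared was higher (11.1% against 0.528% of all features, median 0.25). It was Il6, the inducer of the acute-phase response, with 1.23 RPKM (37 reads) in control and 5.0 RPKM (152 reads) with TNF, or 4.07-fold (2.83 to 6.0). Lif, a cytokine of the same family, stood at 3.05 and 6.51 RPKM, just under the size rule. Csf1, the macrophage growth factor, was far more abundant at 114 and 163 RPKM (log2 ratio 0.52). Csf2, which encodes GM-CSF, had 1 and 18 reads and stayed under 1 RPKM.

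Of the TNF superfamily ligands 4 were compared and 0 passed the size rule in either direction (median -0.18). Tnf itself had 0 reads in control and 1 with TNF. Growth factors showed 0 of 23 past the rule (median -0.14), with Ereg, an EGF receptor ligand, highest at 9.17 and 17.3 RPKM and Bmp4 lowest at 8.75 and 4.95 RPKM.

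The receptors for TNF had log2 ratios under the size rule. Tnfrsf1a, which encodes the main TNF receptor of fibroblasts, stood at 35.1 and 32.5 RPKM, and Tnfrsf1b, the second receptor, at 1.97 and 2.46 RPKM. Of 10 receptors of the superfamily compared, 1 was higher (10% against 0.528% of all features). It was Fas, the death receptor for Fas ligand, at 2.45 RPKM (101 reads) and 9.72 RPKM (404 reads), or 3.96-fold (3.18 to 4.98). Tnfrsf9, a co-stimulatory receptor, had 9 and 43 reads and stayed under 1 RPKM.

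Of the other cytokine and pattern recognition receptors 1 of 21 passed the size rule (4.76% against 0.528% of all features), with a median of 0.20. It was Il1rl1, the receptor for interleukin 33, at 24.9 and 53.3 RPKM (2.14-fold, 2.03 to 2.25). Its entries of 3002 and 5080 bases had nearly the same number of reads, 2076 and 2138 in control and 4477 and 4406 with TNF, so its soluble and membrane forms are not told apart by these counts. Below the rule, Ifngr2 stood at 29.8 and 48.4 RPKM (0.69), Ifngr1 at 30.2 and 44.7 RPKM (0.56), both chains of the interferon gamma receptor, and Il6st, the signalling chain shared by interleukin 6 family receptors, at 42.2 and 62.4 RPKM (0.56). Pdgfrb, a receptor for platelet-derived growth factor, was the lowest at 18.6 and 13.1 RPKM (-0.49).

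Proteins that carry the signal from the receptor showed 1 of 34 past the size rule (2.94% against 0.528% of all features) and a median of 0.05. It was Ikbke, a kinase related to the IkB kinases, at 1.71 and 6.09 RPKM (3.56-fold, 2.97 to 4.29). The core kinases were nearly level: Chuk was at 27.0 and 29.1 RPKM, Ikbkb at 8.83 and 9.09 RPKM and their partner Ikbkg at 13.1 and 13.3 RPKM. The adaptor Tradd, at 7.79 and 6.66 RPKM, was the lowest of the list (-0.21). Ripk2, the kinase downstream of NOD receptors, was outside this list and higher, at 20.8 and 45.2 RPKM (2.17-fold, 2.02 to 2.33).

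All 5 NF-kB subunits had a ratio above 0, where the median of all features was -0.02. Of the 5, 2 passed the size rule (40% against 0.528% of all features). Those were the members of the non-canonical branch: Relb was at 4.73 and 15 RPKM (3.17-fold, 2.77 to 3.63) and Nfkb2 at 25.5 and 62.9 RPKM (2.47-fold, 2.35 to 2.60). Nfkb1, encoding p105 and p50, stood at 21.2 and 34.4 RPKM (0.69). Rel was at 2.0 and 2.74 RPKM (0.38) and Rela, which encodes p65, at 36.6 and 45.9 RPKM (0.32).

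Of 6 IkB genes 5 were compared and 4 of those were higher (80% against 0.528% of all features), with a median of 1.41. The sixth, Nfkbid, had 10 reads in control and 6 with TNF and stayed under 1 RPKM. Nfkbia, encoding IkB alpha, stood at 16.4 RPKM (724 reads) and 66.4 RPKM (2958 reads), or 4.05-fold (3.73 to 4.40). Nfkbie, encoding IkB epsilon, was scarcer at 1.10 and 6.82 RPKM (6.19-fold, 4.83 to 8.02). The atypical members Bcl3, at 1.04 and 3.60 RPKM, and Nfkbiz, at 2.27 and 6.14 RPKM, were higher too. Nfkbib, IkB beta, was under the rule at 6.34 and 9.37 RPKM (0.53).

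A mixed list of ubiquitin editing and TRAF feedback genes had 5 of 20 past the rule (25% against 0.528% of all features) and a median of 0.21. Tnip3 is among the 20 only through its level with TNF. Tnfaip3, encoding the deubiquitinase A20, stood at 5.32 and 13.3 RPKM (2.51-fold, 2.29 to 2.75). The A20-binding partners Tnip1 (10.8 and 30.0 RPKM) and Tnip3 (0.249 and 3.21 RPKM) were both higher, while Tnip2 was at 4.92 and 4.67 RPKM. Traf1, a TRAF protein without a RING domain, stood at 1.64 and 10.7 RPKM (6.49-fold, 5.28 to 8.04), and Zc3h12a, a ribonuclease that degrades cytokine mRNAs, at 6.03 and 15 RPKM. Birc3, encoding cIAP2, was just under the rule at 1.68 and 3.69 RPKM (0.95), and the deubiquitinase Cyld was at 11.5 and 12.9 RPKM.

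**Figure D4:**
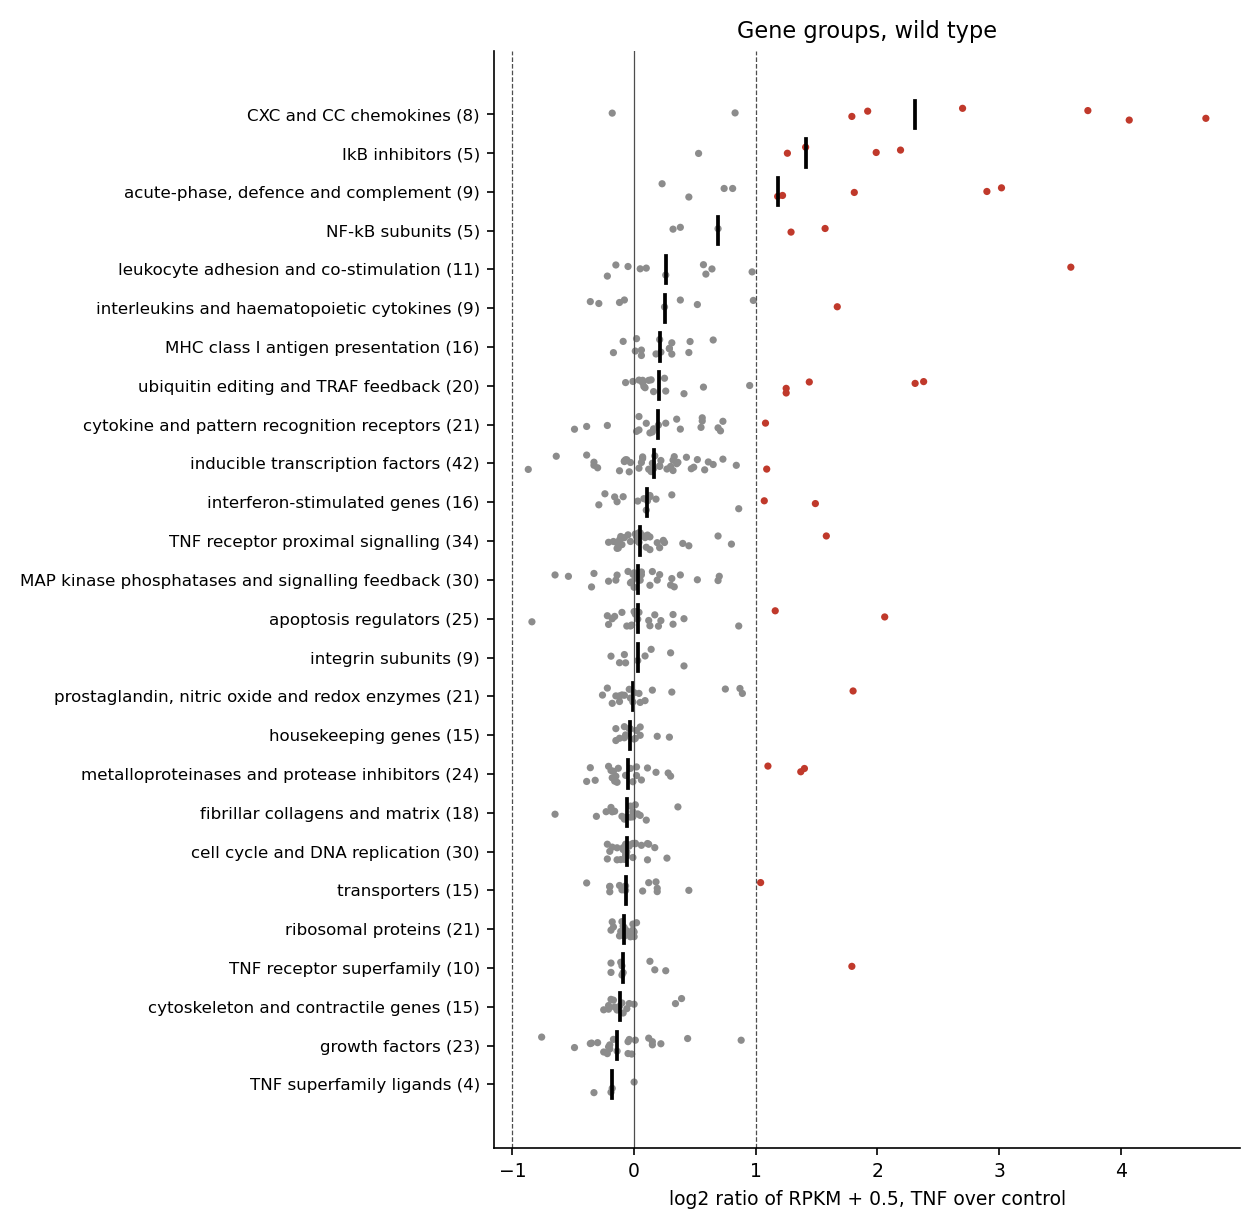
Log2 ratio of RPKM + 0.5, TNF over control, for each compared member of 26 gene lists (number of members in brackets), with the list median as a black bar, red points past the size rule upward and dashed lines at a ratio of 1 in size. Medians run from 2.31 for chemokines to -0.18 for TNF superfamily ligands.

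Acute-phase and defence proteins had 5 of 9 past the rule (55.6% against 0.528% of all features) and a median of 1.18. Saa3, Serpina3g and C1s1 are among the 9 only through their level with TNF. Saa3, a serum amyloid A protein made outside the liver, had 2 reads in control and 69 with TNF (0.136 and 4.64 RPKM), a ratio of 34.2 whose interval runs from 9.11 to 288. Lcn2, an iron-siderophore binder, stood at 1.99 and 18.1 RPKM (9.09-fold, 6.72 to 12.6). C3, the central complement protein, was at 2.23 and 5.83 RPKM, the protease inhibitor Slpi at 1.53 and 4.12 RPKM, and Serpina3g at 0.231 and 2.06 RPKM. Ptx3, a long pentraxin, was already abundant and under the rule at 29.1 and 48.8 RPKM (0.74).

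Among adhesion and co-stimulation genes 1 of 11 was higher (9.09% against 0.528% of all features, median 0.26). It was Vcam1, the endothelial and stromal ligand of leukocyte integrin VLA-4, with 1.31 RPKM (123 reads) in control and 21.3 RPKM (2022 reads) with TNF, or 16.3-fold (13.6 to 19.7). Icam1, the partner adhesion molecule in many cells, had 0 and 10 reads, so it stayed at 0.141 RPKM with TNF. Integrin subunits had 0 of 9 past the rule (median 0.03).

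Genes of cell death and survival had 2 of 25 past the rule (8% against 0.528% of all features, median 0.03). Casp4, the inflammatory caspase that senses lipopolysaccharide in the cytosol, stood at 2.52 and 12 RPKM (4.79-fold, 3.85 to 6.0), and Ier3, an immediate early survival gene, at 15.2 and 34.4 RPKM (2.27-fold, 1.94 to 2.66). Gadd45g, a stress gene, was at 23.3 and 12.8 RPKM (-0.84), while its relative Gadd45b was at 21.5 and 28.6 RPKM.

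Inducible transcription factors had 1 of 42 past the rule (2.38% against 0.528% of all features). Their median was 0.17, against -0.02 over all features, and 29 of 42 lay above 0 and 13 below. Cebpd, a partner of NF-kB at acute-phase genes, stood at 1.66 and 4.10 RPKM (2.47-fold, 1.96 to 3.13). With a pseudocount of 1 RPKM its log2 ratio was 0.94, so that 0 of 42 passed. Junb was at 5.73 and 10.6 RPKM (0.84), Cebpb at 19.0 and 30.1 RPKM (0.65) and Irf1 at 11.1 and 17.2 RPKM (0.61). The lowest were Id2, an inhibitor of basic helix-loop-helix factors, at 22.8 and 12.3 RPKM (-0.87), and Egr1 at 2.12 and 1.19 RPKM (-0.64). MAP kinase phosphatases and other signalling feedback genes had 0 of 30 past the rule (median 0.03). They ran from Rgs16 at 4.37 and 7.43 RPKM (0.70) to Dusp1 at 25.1 and 15.9 RPKM (-0.65).

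Of 21 prostaglandin, nitric oxide and redox enzymes compared, 1 passed the rule (4.76% against 0.528% of all features), with a median of -0.01. It was Nos2, the inducible nitric oxide synthase, with 0 reads in control and 139 with TNF (1.25 RPKM). Nos2 was thus compared only through its level with TNF. The lower limit of its counting interval was 36.9, and the ratio was 45.9-fold if the control is given 3 reads. Ptgs2, encoding cyclooxygenase 2, was at 15.9 and 27.1 RPKM (0.75), its partner Ptges at 3.45 and 6.73 RPKM (0.87) and Sod2, the mitochondrial superoxide dismutase, at 15.1 and 28.4 RPKM (0.89). Matrix proteases and their inhibitors had 3 of 24 past the rule (12.5% against 0.528% of all features). All 3 were scarce and were compared only through their level with TNF, which fixes the sign of the ratio. Mmp13, a collagenase, had 10 and 85 reads, Mmp10, a stromelysin, 11 and 69 reads, and Serpinb2, an inhibitor of plasminogen activators, 13 and 60 reads. With a pseudocount of 1 RPKM these came to 0.91, 0.98 and 0.75, so that 0 of 24 passed. The abundant Mmp2 (48.3 and 44.2 RPKM) and Timp1 (123 and 116 RPKM) were nearly level.

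Of 16 interferon-stimulated genes 2 were higher (12.5% against 0.528% of all features), with a median of 0.10. Gbp2, a guanylate-binding protein, stood at 0.263 and 1.65 RPKM and was compared only through its level with TNF. Samd9l was at 6.55 and 14.3 RPKM, while Ifit3 was at 1.73 and 1.32 RPKM. MHC class I presentation genes had 0 of 16 past the rule, but 14 of 16 lay above 0 (median 0.22 against -0.02 over all features). The share of all features above 0 was not counted. Small shifts of 1 sign were also seen downward, as in the ribosomal protein list, where 18 of 21 lay below 0. Tapbp, the peptide-loading chaperone tapasin, was highest at 15.7 and 24.9 RPKM (0.65). Among transporters 1 of 15 passed (6.67% against 0.528% of all features), the iron importer Slc11a2 at 15.5 and 32.5 RPKM (2.09-fold, 1.98 to 2.21).

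Several higher genes stood in no list, 17 of the 54 named. Neurl3, a ubiquitin ligase, was at 1.47 and 7.32 RPKM (4.99-fold, 4.04 to 6.22). Gypc, a membrane glycoprotein of red cells and other tissues, stood at 6.33 and 15.8 RPKM, Lrig1, a negative regulator of EGF receptors, at 10.9 and 25.1 RPKM, and Ntn1, the guidance protein netrin 1, at 1.79 and 4.84 RPKM. Pik3r5, a regulatory subunit of phosphoinositide 3-kinase gamma and the neighbour of Ntn1 on chromosome 11, was at 0.446 and 1.88 RPKM. The proliferin genes Prl2c2, Prl2c3, Prl2c5 and Prl2c1 had ratios of 1.39, 1.36, 1.34 and 1.25, but these near-identical copies can share reads, so each value is uncertain.

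Housekeeping and structural programmes lay close to the overall median. None of 30 cell cycle genes (median -0.06), 21 ribosomal protein genes (-0.08), 18 matrix genes (-0.05), 15 cytoskeletal genes (-0.12) or 15 housekeeping genes (-0.03) passed the rule. Most members of these lists lay slightly below 0. They were 22 of the 30 cell cycle, 18 of the 21 ribosomal, 13 of the 18 matrix, 12 of the 15 cytoskeletal and 9 of the 15 housekeeping genes. Thbs1, the matrix protein thrombospondin 1, was the lowest of the matrix list at 80.6 and 51.2 RPKM (-0.65). The 10 largest losses in RPKM were of abundant transcripts with log2 ratios between -0.10 and -0.21, among them Actb at 3673 and 3255 RPKM.

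Lower transcripts were few. Of the 7 features past the rule downward, 6 were shorter than 200 bases and had at most 10 reads. The other was Cmklr1, encoding a receptor for the chemoattractant chemerin, at 2.52 RPKM (199 reads) in control and 0.867 RPKM (69 reads) with TNF, or 0.344-fold (0.257 to 0.454). At a 1.5-fold difference 212 features were higher and 77 lower.

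The libraries labelled Mll1-/- give the only other TNF comparison of the series. Kmt2a, the targeted gene, stood at 1.85 and 2.11 RPKM in the wild-type libraries (842 and 971 reads) and at 2.02 and 1.66 RPKM in those labelled Mll1-/-, so its level does not set the labelled genotypes apart. The table does not say which exons the reads cover. In those libraries 97 of 13890 features were higher with TNF (0.698%). Of the 54 named genes higher in wild type, 48 reached 1 RPKM there, 47 of the 48 had a ratio above 0, and 25 of the 48, which are 25 of the 97, passed the size rule. How many of all features lay above 0 there was not counted. The median ratio of the genes was 1.38 in wild type and 1.02 in the libraries labelled Mll1-/-, where the first is raised by the choice of the genes on it.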

How the data were processed

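RNA-seq of 4 libraries was deposited by the authors as RPKM per transcript entry, per the file headers. The submitters' processing notes name TopHat and DESeq without a version or role, while a genome build or annotation is not given in the sources used here. TNF is dosed in ng/ml in the agent label and design text, and in another unit in the treatment protocol. Whole reads were recovered from the deposited RPKM for 27344 of 27344 entries (100.00%, tolerance 0.0001 reads), giving totals of 27728647 (control) and 27977248 (TNF) reads in wild type. Reads summed over entries were 1.72 and 1.70 times these totals. The recovered length of 75.9% of 20661 entries lay within 10% of GENCODE M21, and for 578 entries the reads were multiplied to match it. A count test was not run because each group is 1 library, so there is no residual spread.

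Entries were named by a RefSeq gene table (20849) or GENCODE metadata (102), and 6393 stayed unnamed. Another entry held the same 4 values for 3106 entries. Strand is not stated, so overlapping antisense genes cannot be separated. Ratios were taken of RPKM + 0.5 on the log2 scale, where low genes differ by less than in reads, and a minimum of 1 RPKM in either library. Since no molecular identifiers mark the reads, which may be copies of one another, intervals and the floor of 3 reads cover counting error only.

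Genes were named by rule: the 40 highest and 20 lowest log2 ratios past the size rule, given 3 RPKM in the higher of the libraries, the 15 largest gains and 10 largest losses, genes with 0 control reads, list members past the rule with the 3 highest and 3 lowest others, and the 3 nearest the rule on each side. A gene named outside this rule was chosen after its values were seen, as were the scarce genes named beside their relatives, the neighbours of chemokine genes, and Gypc, Lrig1, Ntn1 and Pik3r5 among genes of no list. The 33 gene lists and the members were chosen with earlier results of these data known, and lists come from general knowledge. Alternatives covered the pseudocount, filter, scaling, transcript length, choice of entry and size rule. Scripts were tested on simulated data and used Python 3.11.15, numpy 2.4.6, pandas 2.3.3, scipy 1.17.1 and matplotlib 3.10.9.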

Additional observations from a re-analysis of the deposited data

Results flagged for a closer look

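Neurl3, which encodes a ubiquitin ligase, had a log2 TNF ratio of 1.99 in wild type (1.47 and 7.32 RPKM) and of -0.22 in the libraries labelled Mll1-/- (1.29 and 1.04 RPKM). It was flagged because the ratios have opposite signs in the 2 genotypes, each with 1 library a group, and the difference was not tested. The negative ratio is small, comes from low levels and has no counting interval here, so its sign is uncertain. Samd9l (0.00) and Serpina3g (0.12) were also near level in the libraries labelled Mll1-/-, but were under 1 RPKM there and thus not among the 48.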

How the results depend on the processing

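The count of 72 higher features lay between 54 and 102 under every other pseudocount, filter, scaling, length correction, choice of entry and interval rule, and became 212 at a 1.5-fold and 11 at a 4-fold size rule. The count of 7 lower features became 19 with a pseudocount of 0.1 RPKM, 12 without a filter, 2 with a filter of 3 RPKM, 77 at 1.5-fold, 1 at 4-fold, and 2 where the interval had to exclude 1. The other scalings moved all ratios by 0.01 to 0.03. Of 55 named genes and list members past the rule, 43 stayed past it under every alternative that gave a value, 0 changed sign, and 11 fell under it with a pseudocount of 1 RPKM: Cd74, Cebpd, Cmklr1 (-0.92), Enpp2, Gdpd5, Mmp10, Mmp13, Ptpn22, Serpinb2, Slc43a2 and Slfn2. Slc11a2 came to 0.99 when entries were summed. The kappaB share was 53.1% for the 40 highest named genes. It was 44.4% for genes with an interval above 1, but these have the same 45 windows as the main set, so that share could not differ. No paired analysis was possible because each group is 1 library with no replicate number. With 1 library a group, depth limits scarce genes most: Saa3 rests on 2 control reads.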

Other observations

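None of the following genes passed the size rule, and they were chosen after their values were seen, so they stand for no gene group. Bmp4, a bone morphogenetic protein, stood at 8.75 RPKM in control and 4.95 RPKM with TNF (-0.76), and Id2, an inhibitor of basic helix-loop-helix factors, at 22.8 and 12.3 RPKM (-0.87). Smad6, an inhibitory Smad, was at 4.18 and 2.38 RPKM (-0.70) and the transcription factor Atoh8 at 7.34 and 4.16 RPKM (-0.75). The relatives of Id2 and Smad6 were nearer to level, at -0.33 for Id1, -0.30 for Id3 and -0.07 for Smad7 (4.22 and 4.01 RPKM). In the libraries labelled Mll1-/-, the ratios were -0.05 for Bmp4, -0.13 for Id2, -0.36 for Smad6 and -0.72 for Atoh8, and Id1 and Id3 were higher there, at 0.52 and 0.50.

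Under the size rule, Sqstm1, which encodes the autophagy receptor p62, had 1 of the larger gains, from 260.1 to 389 RPKM (log2 ratio 0.58), and Plk2, a stress-responsive kinase, stood at 141 and 227 RPKM (0.69).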
